A study of Mus musculus with 288 samples.

Results

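White fat of BLKO mice was compared between daytime feeding and ad libitum feeding, over all 24 daytime-fed and all 24 ad libitum libraries that carry this tissue and genotype in their labels, 48 of 288 libraries in the series. Daytime-fed BLKO mice (DF in the labels) ate only in the light phase, by manual removal of food, for 30 days. Ad libitum BLKO mice (AL) had food throughout. Mice of both groups were C57BL/6, aged 3 months, on a cycle of 12 h light and 12 h dark, with floxed Bmal1 alleles on both chromosomes and the Alb-Cre transgene. Alb-Cre drives Cre recombinase from the promoter of the albumin gene, a hepatocyte gene, so the fat cells themselves are not the intended site of recombination. White fat of Alb-Cre mice, which carry the transgene without floxed alleles, shared the fit with 24 daytime-fed and 24 ad libitum libraries and is used below for tests of genotype. RNA was sequenced in bulk at 12 times, every 2 h from 0 to 22 h, with 2 libraries per group and time, named here by hour and letter (0A, 0B). Whether hour 0 is lights on is not labelled, and neither the fat depot nor the animals are named. Each group of genotype and feeding has its own number in its titles. If these numbers mark batches, batch and feeding cannot be told apart. The same then holds for the difference of the feeding effect between genotypes. The design asks how the time of feeding resets the clock and daily expression of a peripheral tissue in mice without a working clock in the liver.

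The circadian clock is a loop in which CLOCK or NPAS2, paired with BMAL1, activates genes through E-box sequences, among them the Per and Cry genes, whose proteins repress the pair. REV-ERB receptors (Nr1d1, Nr1d2) repress Bmal1 (gene symbol Arntl), and DBP, TEF, HLF and the repressor NFIL3 act on D-box sequences in output genes. White fat makes fatty acids from acetyl-CoA in a chain of cytosolic enzymes and stores them as triglyceride, a programme that is known to follow feeding and insulin.

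Total counts were 2130583 to 4295727 per daytime-fed library (median 3159370) and 1365001 to 4438347 per ad libitum library (median 2971114). Levels are given as CPM, a count scaled to the library total and then by a fixed factor. The tissue carried its defining marker throughout: Adipoq, the adiponectin gene, ranged from 3487 to 7732 CPM in daytime-fed fat, with a median of 6745, and from 5420 to 9351 CPM in ad libitum fat, with a median of 6399. A group of 3 libraries stood apart. Correlation with the median library of the group was 0.840 for daytime-fed 0A, 0.931 for ad libitum 0B and 0.939 for ad libitum 4B, against 0.972 to 0.992 for the other 45. Library 0A of the daytime-fed group held 21117 CPM of the epididymis and testis markers, where the group medians were 0.528 CPM daytime-fed and 0.309 CPM ad libitum, and 1189 CPM of epithelial markers. The ad libitum libraries 0B and 4B had 48.6 and 61.9 CPM of Lep, the leptin gene, where the other 22 ad libitum libraries had 468 CPM or more. They also had 34.7 and 28.5 CPM of T cell markers, against an ad libitum median of 9.84. Main counts, and several single genes, are given with and without these libraries.

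**Figure D1:**
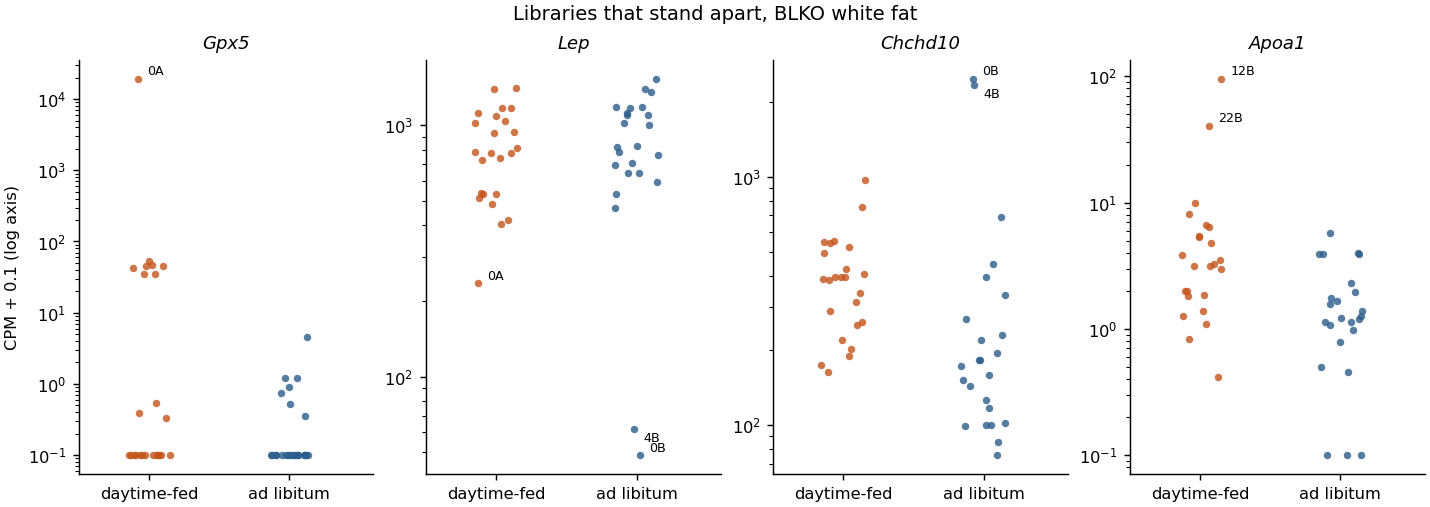
Each point is 1 library of BLKO white fat, daytime-fed left and ad libitum right; the vertical axis is CPM plus 0.1 on a log scale. Daytime-fed 0A stands far above the rest for the epididymal gene Gpx5, ad libitum 0B and 4B stand low for Lep and high for Chchd10, and daytime-fed 12B and 22B stand high for the apolipoprotein gene Apoa1.

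Daytime feeding raised the daily mean of 556 of 11065 genes tested (5.02%) and lowered that of 596 (5.39%), by the quasi-likelihood test of edgeR at a Benjamini-Hochberg adjusted p of 0.05. The daily mean is here the middle of the fitted 24 h curve on a log scale, not the average of CPM over the day. The median log2 fold change over all genes tested was 0.00. Most changes were small: 27 genes rose and 10 fell by at least 2-fold. The genes that rose furthest with the same sign in the absence of the 3 outlying libraries included fatty acid synthesis enzymes. Those that fell furthest included secreted inflammatory and complement proteins and metallothioneins. Without the 3 libraries 568 genes rose and 615 fell, of which 432 and 470 were among those called with all libraries. In bulk tissue, fewer cells of a type and less RNA per cell cannot be told apart.

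The enzymes of fatty acid synthesis rose together. Of 20 genes listed for synthesis of fatty acids and triglycerides, 11 rose and 0 fell, where 5.02% and 5.39% of all genes did. The median log2 fold change of the list was 0.43. Elovl6 (chromosome 3, 129532355 to 129638495, plus strand, mm10), which elongates palmitate to stearate, had 6.71 to 56.1 CPM in daytime-fed fat, with a median of 28.4. In ad libitum fat it had 0.517 to 9.88 CPM, with a median of 4.24. All but 1 of the 24 daytime-fed libraries lay above every ad libitum library, and the mean rose by 2.77 ± 0.22 log2 units (adjusted p = 5.16e-17), or 6.80-fold. The lowest daytime-fed library was 6A, and the lowest ad libitum libraries were 0B and 4B. Without the 3 outlying libraries the rise was 2.60 log2 units (adjusted p = 5.69e-15).

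Acly (chromosome 11, 100476353 to 100528000, minus strand), which splits citrate into the acetyl-CoA used for synthesis, had 334 to 1517 CPM in daytime-fed fat, with a median of 781. Its range in ad libitum fat was 98.0 to 343 CPM, with a median of 241. The groups again overlapped by a single daytime-fed library, and the rise was 1.68 ± 0.16 log2 units (adjusted p = 7.53e-14). Fasn, the fatty acid synthase (chromosome 11, 120805846 to 120824547, minus strand), had 60.8 to 342 CPM with a median of 170.5 when daytime-fed, against 1.03 to 126 CPM with a median of 62.1 ad libitum. It rose by 1.49 ± 0.20 log2 units (adjusted p = 2.73e-08), with 19 of 24 daytime-fed libraries above the ad libitum maximum, and its ad libitum minimum was library 0B.

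The steps on either side of these enzymes moved the same way. Acaca, the acetyl-CoA carboxylase that makes malonyl-CoA, had medians of 694 CPM daytime-fed and 331 CPM ad libitum and rose by 1.05 ± 0.13 log2 units. Me1, the malic enzyme that supplies NADPH, had medians of 484 and 243 CPM in the same order of groups and rose by 1.06 ± 0.14. Acss2, which makes acetyl-CoA from acetate, rose by 1.06 ± 0.16, the desaturase gene Scd2 by 1.15 ± 0.17 and the mitochondrial citrate carrier Slc25a1 by 0.68 ± 0.11. Their adjusted p-values lay between 7.41e-09 and 7.8e-06. Scd1, the main desaturase of the tissue, rose by 0.53 ± 0.14 (adjusted p = 0.00572). Thrsp, a lipogenic regulator, rose by 0.49 ± 0.15 and the acyltransferase Agpat2, which makes phosphatidic acid, by 0.37 ± 0.13. Agpat2 did not pass without the 3 libraries (adjusted p = 0.0522). Scd1 and Scd2 are close paralogs, and how shared reads were assigned is not given in the sources used here. Outside the list, Tkt, the transketolase of the pentose phosphate pathway, had medians of 8.64 CPM daytime-fed and 3.12 CPM ad libitum and rose by 1.48 ± 0.21 (adjusted p = 1.72e-07). The transcription factor genes Srebf1 and Mlxipl, which drive these enzymes, had log2 fold changes of 0.13 and 0.03 that did not pass. Acacb, the carboxylase isoform tied to fatty acid oxidation, was at -0.14 and did not pass either.

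**Figure D2:**
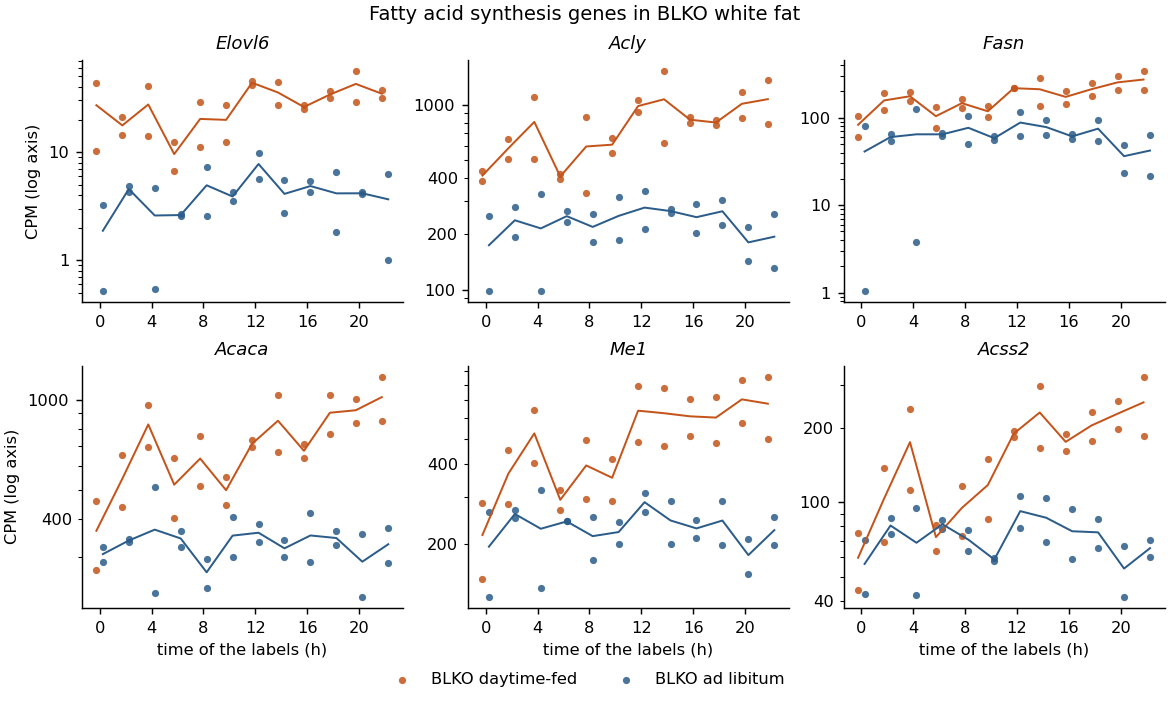
CPM on a log axis against the time of the labels, 1 panel per gene, with points for single libraries (daytime-fed orange, ad libitum blue) and lines through the mean of the 2 libraries at each time. The daytime-fed Elovl6 and Acly points lie above the ad libitum points of the same hour at all 12 times, and the low blue Fasn points at 0 and 4 h are ad libitum libraries 0B and 4B.

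Genes of sterol synthesis rose as well. Of 16 genes tested for cholesterol synthesis and uptake 9 rose and 0 fell, where 5.02% and 5.39% of all genes did. The list median was 0.38. Nsdhl, a sterol dehydrogenase (chromosome X, 72918557 to 72958514, plus strand), had 27.1 to 93.2 CPM in daytime-fed fat, with a median of 38.4, and 7.33 to 36.1 CPM in ad libitum fat, with a median of 23.5. All 24 daytime-fed libraries were above the ad libitum median, and Nsdhl rose by 0.81 ± 0.13 log2 units (adjusted p = 5.5e-06). Sqle, the squalene epoxidase, rose by 0.64 ± 0.17, Lss, the lanosterol synthase, by 0.61 ± 0.12 and Fdps, the farnesyl diphosphate synthase, by 0.54 ± 0.14. The count changed with the libraries left out. Without the 3 outlying libraries 3 of the 16 passed, and without 4B of the ad libitum group alone 5 passed. It was also 4 without all libraries of 14 h, 5 without those of 6 h and 10 without those of 0 h. Nsdhl, Lss and Fdps were the 3 genes that passed without the 3 libraries (adjusted p = 9.57e-05, 0.000905 and 0.0470), and Sqle did not.

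Fatty acid uptake genes changed in part. Of 9 tested, Cd36, a fatty acid transporter, rose by 0.46 ± 0.10 log2 units with medians of 346 CPM daytime-fed and 251 CPM ad libitum, and Fabp5, a fatty acid binding protein, rose by 0.40 ± 0.11. Slc27a1, another transporter, fell by 0.66 ± 0.16 log2 units (adjusted p = 0.00380), but not without the 3 libraries (adjusted p = 0.175), where its highest ad libitum value of 1201 CPM was absent. Of 13 genes for lipolysis and the lipid droplet, Plin2, a droplet coat protein, rose by 0.31 ± 0.10 log2 units. Aqp7, the glycerol channel of adipocytes, fell by 0.44 ± 0.09 log2 units (adjusted p = 0.000810), with medians of 64.3 CPM daytime-fed and 82.5 CPM ad libitum. The triglyceride lipase genes Pnpla2 and Lipe were among the members that did not pass. With 1 of 13 higher and 1 lower (2 and 2 without the 3 libraries), the list was near the 5.02% and 5.39% of all genes. In fatty acid oxidation 1 of 13 passed, near the 5.02% of all genes that rose: Cpt1a, the carnitine palmitoyltransferase of the outer mitochondrial membrane, which rose by 0.40 ± 0.09.

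Of 8 adipocyte identity factors tested 0 passed and of 7 adipokines 1, counts near the shares of all genes called (5.02% higher and 5.39% lower). The adipokine was Apln, which encodes apelin, with medians of 14.6 CPM daytime-fed and 11.4 CPM ad libitum and a rise of 0.51 ± 0.15 log2 units (adjusted p = 0.0201). Lep had medians of 782 CPM daytime-fed and 823 CPM ad libitum (log2 fold change -0.13 ± 0.17, adjusted p = 0.679). In oxidative phosphorylation and the citric acid cycle 3 of 19 rose, the citrate synthase gene Cs by 0.27 ± 0.06, Idh3a, a subunit of isocitrate dehydrogenase, by 0.30 ± 0.07 and the complex III gene Uqcrc2 by 0.28 ± 0.07. Without the 3 outlying libraries that count was 8. Of 15 genes of insulin signalling and glucose uptake 2 fell, the kinase gene Akt2 and the stress sensor Sesn1, by 0.24 ± 0.08 and by 0.26 ± 0.06 log2 units. Without the 3 outlying libraries 1 of the 15 fell. Of 2 cold-inducible genes Rbm3 passed: all 24 daytime-fed libraries were above the ad libitum median of 9.28 CPM, and the rise was 0.45 ± 0.09 (adjusted p = 0.000141).

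**Figure D3:**
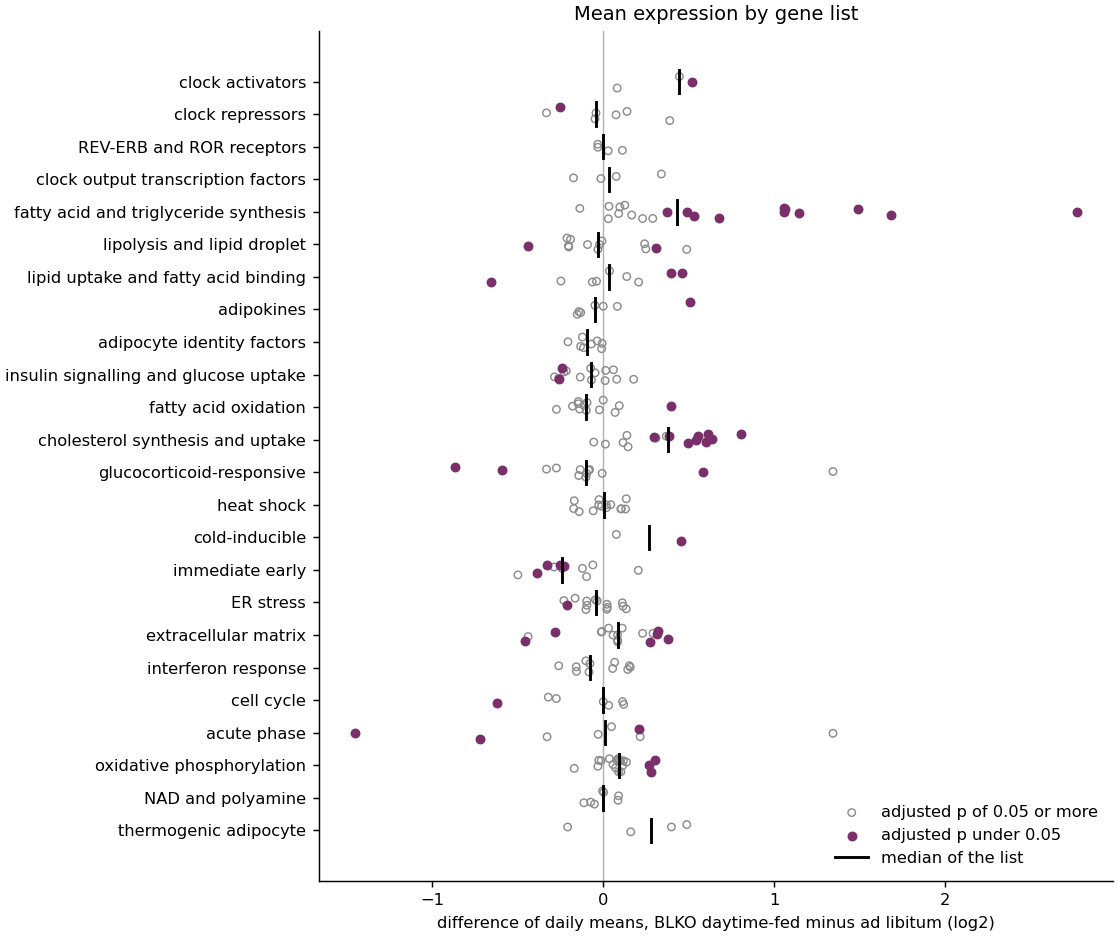
Each point is a gene of the list named on the left, placed by the difference of its daily means (daytime-fed minus ad libitum, log2); filled points passed at an adjusted p under 0.05 and black bars are list medians. The lists for lipid and cholesterol synthesis have medians of 0.43 and 0.38, and the lowest point is Saa3 of the acute phase list.

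Several secreted defence proteins were lower in daytime-fed fat. Saa3, a serum amyloid A made in fat (chromosome 7, 46711998 to 46715700, minus strand), had 7.63 to 49.0 CPM in daytime-fed fat, with a median of 19.6, and 13.7 to 197 CPM in ad libitum fat, with a median of 52.3. All 24 daytime-fed libraries were below the ad libitum median, and the mean fell by 1.45 ± 0.21 log2 units (adjusted p = 3.44e-07). Hp, the haemoglobin-binding haptoglobin, had medians of 3515 CPM daytime-fed and 5785 CPM ad libitum and fell by 0.72 ± 0.12 log2 units, again with 24 of 24 below the ad libitum median. Ad libitum 0B, 22A and 4B, at 1568, 1705 and 1720 CPM of Hp, lay below the daytime-fed minimum of 2391 CPM. C4b, a complement component (chromosome 17, 34728380 to 34743882, minus strand), had 245 to 570.2 CPM daytime-fed and 347 to 869 CPM ad libitum and fell by 0.74 ± 0.09 log2 units (adjusted p = 1.42e-09). C4a is a near-identical copy of C4b, so the split of reads between them is uncertain. These are not a list-wide shift: of 8 acute phase genes tested 2 fell and 1 rose, where 5.39% and 5.02% of all genes did. The gene that rose was the ferroxidase Cp, by 0.21 ± 0.07, and the list median was 0.01. Without the 3 outlying libraries 2 fell and 0 rose.

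Other genes among the furthest falls belonged to detoxification and leukocytes. Cyp2f2, a cytochrome P450, had medians of 51.6 CPM daytime-fed and 169 CPM ad libitum, with 18 of 24 daytime-fed libraries below the ad libitum minimum, and fell by 1.68 ± 0.24 log2 units (adjusted p = 2.8e-07). The metal-binding metallothioneins Mt2 and Mt1 fell by 0.87 ± 0.14 and by 0.59 ± 0.10 log2 units. Mt2 had 496 to 1050 CPM daytime-fed and 745 to 2339 CPM ad libitum. They were the falling members of 13 glucocorticoid-responsive genes, in which the cell cycle inhibitor Cdkn1a rose by 0.58 ± 0.16. Alox15, a lipoxygenase, fell by 1.42 ± 0.24 log2 units, Prg4, which encodes lubricin, by 1.21 ± 0.21 log2 units and the neutrophil protease gene Prtn3 by 0.83 ± 0.16 log2 units. Cd79b, a B cell receptor subunit, dropped by 0.94 ± 0.21 log2 units, Wfdc21 by 0.84 ± 0.18 log2 units and Psme2b by 0.92 ± 0.22 log2 units. Psme2b resembles the proteasome activator gene Psme2 closely, so its counts are uncertain. Of 11 immediate early genes 4 fell, Jun, Junb, Ier2 and Zfp36, by 0.39 log2 units at most, where 5.39% of all genes fell. Without ad libitum 4B alone 2 of the 11 passed, and likewise 2 without all libraries of 8 h or of 16 h. Zfp36 did not pass without the 3 libraries (adjusted p = 0.0718).

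Markers of other cells moved beside these genes. Of 8 macrophage markers 2 fell, where 5.39% of all genes did: the lysozyme gene Lyz2 and the integrin gene Itgam, by 0.55 ± 0.09 and by 0.45 ± 0.12 log2 units. The median log2 fold change of the list was -0.06, so the list as a whole was little changed. Its summed level was 501 to 1249 CPM daytime-fed (median 687) and 587 to 1546 CPM ad libitum (median 891). The summed B cell markers had medians of 9.51 CPM daytime-fed and 16.1 CPM ad libitum. Of 8 progenitor and fibroblast markers Pi16 and Ly6a fell, against the same share of all genes and with a list median of -0.06, while 1 of the 8 fell without the 3 outlying libraries. Of 6 smooth muscle markers, with a list median of 0.29, Myh11 rose by 0.52 ± 0.10 and Acta2 by 0.37 ± 0.12, where 5.02% of all genes rose. Without the 3 libraries 1 of the 6 rose. The summed list had medians of 413 CPM daytime-fed and 350 CPM ad libitum. The part of these cells in the lower defence genes was not tested. In the extracellular matrix list 4 of 17 rose and 2 fell, where 5.02% and 5.39% of all genes did. The collagen VI genes Col6a1, Col6a2 and Col6a3 and the crosslinking enzyme Lox rose, by 0.38 at most. Without all libraries of 4 h, or of 10 h, 1 of 17 rose. The fibronectin gene Fn1 fell by 0.46 ± 0.12 log2 units and the laminin gene Lamb1 by 0.28 ± 0.06 log2 units.

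Several of the largest fitted folds belonged to genes known from other organs. Lcn8, Gpx5 and Defb48, which are expressed in the epididymis, had fitted log2 fold changes of 7.08 ± 1.76, 7.25 ± 1.78 and 7.61 ± 2.29. Gpx5 stood at 19199 CPM in daytime-fed 0A, at 34.5 to 53.1 CPM in daytime-fed 4A, 6B, 10A, 18A, 18B, 20A and 22B, and at 4.43 CPM or less in every other BLKO library. Adam7, a further epididymal gene, was at 2643 CPM in 0A, at 6.17 to 16.8 CPM in those same 7 libraries and at 3.42 CPM or less in the rest. Without the 3 outlying libraries Defb48 did not pass (adjusted p = 0.0717), Lcn8 and Gpx5 did (0.0484 and 0.0466), and none of these passed without the 9 libraries whose epithelial markers exceeded 100 CPM (0.0787 to 0.123). Actg2, an actin of smooth muscle, had 1696 CPM in 0A and 10.7 CPM at the daytime-fed median, and did not pass without the 3 libraries (adjusted p = 0.432). The apolipoprotein genes Apoa2 and Apoa1, known from liver, rose by 2.46 ± 0.53 and 2.33 ± 0.55. Their highest daytime-fed library was 12B, with 95.2 CPM of Apoa1, followed by 22B with 40.6, and without 12B and 22B neither passed (adjusted p = 0.0589 and 0.147). With Ttr they were the 3 of 5 hepatocyte markers tested that rose, where 5.02% of all genes did. Alb, the albumin gene, had a log2 fold change of 0.07 ± 0.27 (adjusted p = 0.913). Gm6484, an uncharacterised gene, rose by 1.58 ± 0.39 with medians of 53.5 CPM daytime-fed and 31.9 CPM ad libitum.

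The response of the mean differed between BLKO and Alb-Cre white fat for 398 genes (3.6%) in the test of the difference itself. The matching test of the 24 h rhythm passed for 0 of 11065 genes. The changes of rhythm given below were thus not shown to differ from those in Alb-Cre fat. In Alb-Cre fat 10 of the 20 genes for synthesis of fatty acids and triglycerides rose, where 4.89% of all genes did, and the test of the difference passed for 2 of them. Elovl6 rose by 2.77 in BLKO and by 1.44 ± 0.18 in Alb-Cre fat, a difference of 1.33 ± 0.29 log2 units (adjusted p = 0.00412). For Acly the rises were 1.68 and 1.29 (difference 0.39 ± 0.22, adjusted p = 0.332), and for Fasn 1.49 and 0.80 (difference 0.69 ± 0.27, adjusted p = 0.126), so those differences did not pass. Cpt1a was at 0.40 in BLKO and -0.14 in Alb-Cre fat (difference 0.53 ± 0.12, adjusted p = 0.00599), and Cd36 at 0.46 and -0.13 (difference 0.58 ± 0.14, adjusted p = 0.00975). Of 17 extracellular matrix genes 6 differed, among them Col6a1 at 0.38 in BLKO and -0.12 in Alb-Cre fat (difference 0.50 ± 0.14, adjusted p = 0.0247). Alox15 was at -1.42 and -0.21 (adjusted p of the difference 0.0252), and Prg4 at -1.21 and 0.11 (0.00535).

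The 24 h rhythm changed between the regimens in 992 genes (8.97%), tested on cosine and sine together, so that a change of phase or of amplitude can pass. Of these genes 454 were rhythmic in daytime-fed fat, 314 in ad libitum fat and 342 in neither group by its own test. Rhythm passed in 822 genes (7.43%) of daytime-fed and 453 (4.09%) of ad libitum fat. The ad libitum count changed with the libraries left out. Without the 3 libraries it was 207, with 174 genes shared, without 0B alone 288 and without 4B alone 255. It was also 263 without all libraries of 16 h and 290 without those of 10 h, hours that hold none of the 3. Without all libraries of 0 h it was 488. The daytime-fed count was 770 without the 3 libraries, with 620 shared, and 303 without the 9 libraries with over 100 CPM of epithelial markers, with 278 shared. The rhythm contrast called 838 genes without the 3 libraries, 667 of them shared, and 712 without the 9, 607 of them shared.

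The clock ran in both groups with its genes shifted. Of 18 clock and clock output genes measured, 14 passed the rhythm contrast, 10 were rhythmic in daytime-fed and 14 in ad libitum fat. The shares of all genes were 8.97%, 7.43% and 4.09% in the same order. The fitted peak-to-trough was smaller in daytime-fed fat for 17 of 18, with a median difference of -0.59 log2 units. Among the activators, Npas2 (chromosome 1, 39193731 to 39363236, plus strand) had its highest time mean at 16 h with 6.18 CPM and its lowest at 6 h with 0.129 CPM when daytime-fed. Ad libitum its highest was at 0 h with 8.96 CPM and its lowest at 16 h with 0.113 CPM. The hour of the daytime-fed maximum was thus the hour of the ad libitum minimum. Npas2 was at 0 CPM in 3 of 24 daytime-fed and 5 of 24 ad libitum libraries, so the hours of its minima are uncertain. The fitted peaks lay 7.57 ± 0.75 h apart, at 17.6 h daytime-fed and 1.20 h ad libitum (rhythm contrast, adjusted p = 1.14e-10). Clock itself was rhythmic in neither group (adjusted p = 0.372 daytime-fed and 0.0592 ad libitum). In the daily mean on the log scale, Arntl (chromosome 7, 113207465 to 113314126, plus strand) rose by 0.52 ± 0.16, but not without the 3 libraries (adjusted p = 0.0629). Whether its CPM averaged over the day rose was not tested. Arntl had 5.63 to 22.6 CPM daytime-fed and 1.36 to 28.2 CPM ad libitum. The daytime-fed libraries lay inside the ad libitum range and spanned a narrower one.

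Among the repressors, Per3 (chromosome 4, 151003652 to 151044665, minus strand) had time means between 58.7 CPM at 0 h and 18.5 CPM at 14 h in daytime-fed fat. In ad libitum fat they lay between 86.4 CPM at 12 h and 22.2 CPM at 2 h. The fitted peaks were at 2.11 ± 0.55 h daytime-fed and 12.9 ± 0.36 h ad libitum (adjusted p = 3.34e-16). Cry1 (chromosome 10, 85131700 to 85185064, minus strand) peaked at 10.2 h daytime-fed and 19.5 h ad libitum, with peak-to-trough values of 0.97 ± 0.18 and 1.56 ± 0.18 log2 units in the same order. Per2 was rhythmic ad libitum, with a peak-to-trough of 2.42 ± 0.28, and not when daytime-fed, with 0.76 ± 0.28 (adjusted p = 0.220), and its rhythm contrast passed (adjusted p = 1.73e-06). Ciart, a repressor of the CLOCK and BMAL1 pair, peaked at 1.31 h daytime-fed and 11.1 h ad libitum. Per1 and Cry2 did not pass the contrast (adjusted p = 0.135 and 0.320), and Bhlhe40 did (0.00196).

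The receptor gene Nr1d2 showed the widest loss of amplitude in the clock lists. Its peak-to-trough was 0.71 ± 0.28 log2 units daytime-fed, where it was not rhythmic (adjusted p = 0.198), and 2.68 ± 0.28 ad libitum, a difference of -1.97. The output factors Tef, Hlf and Nfil3 kept more of theirs. Tef (chromosome 15, 81802421 to 81826863, plus strand) had time means between 268 CPM at 2 h and 112 CPM at 14 h daytime-fed, and between 369.5 CPM at 10 h and 113 CPM at 22 h ad libitum, with fitted peaks at 4.15 h and 12.4 h. Hlf had 1.29 ± 0.21 daytime-fed and 1.43 ± 0.21 ad libitum, and Nfil3, the D-box repressor, 2.01 ± 0.34 and 2.14 ± 0.34. Nfil3 peaked at 9.36 h daytime-fed and 21.0 h ad libitum, a shift of -11.6 ± 0.90 h.

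**Figure D4:**
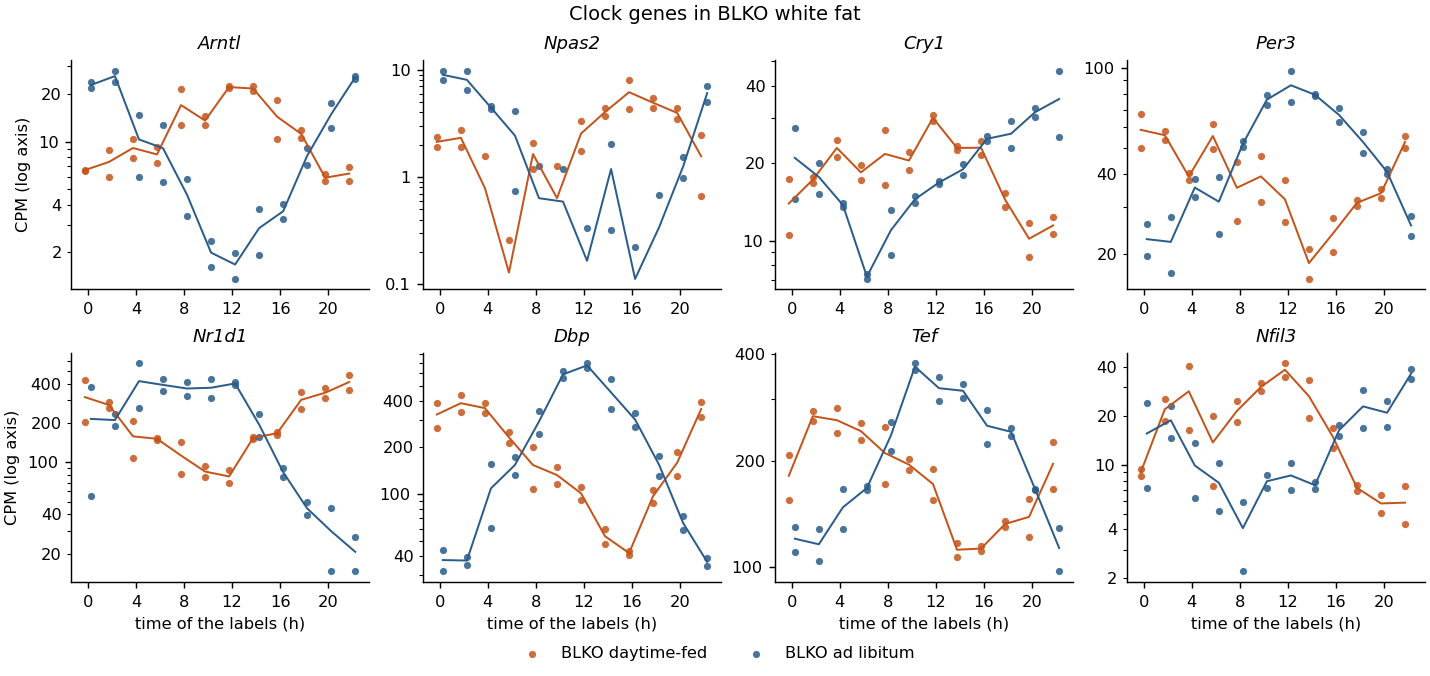
CPM on a log axis against the time of the labels for 8 clock genes, with points for single libraries (daytime-fed orange, ad libitum blue) and lines through the mean of the 2 libraries at each time; libraries at 0 CPM are not drawn. The curves of the groups are displaced by several hours, with orange Per3 highest at 0 h and blue Per3 at 12 h, and the orange curves of Arntl, Nr1d1 and Dbp span a narrower range.

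Promoter windows of 4 of these genes are shown because they hold the sequences through which clock proteins are known to act. They come from RefSeq on GRCm38.p6, are written 5′ to 3′ on the strand of the gene, and carry the motif in capitals. All 4 genes lie on the minus strand: Ciart at chr3:95882255-95882356, Cry1 at chr10:85185069-85185154, Per3 at chr4:151044796-151044890 and Nfil3 at chr13:52981040-52981091.
Ciart: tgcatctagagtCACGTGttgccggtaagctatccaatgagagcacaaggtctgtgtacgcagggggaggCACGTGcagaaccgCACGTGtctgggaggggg
Cry1: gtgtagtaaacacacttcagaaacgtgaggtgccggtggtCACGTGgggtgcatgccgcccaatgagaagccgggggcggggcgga
Per3: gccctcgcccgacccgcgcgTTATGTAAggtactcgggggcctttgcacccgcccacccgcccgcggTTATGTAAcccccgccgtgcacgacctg
Nfil3: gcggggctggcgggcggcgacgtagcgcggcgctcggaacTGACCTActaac
The E-box CACGTG occurs 3 times in the Ciart window, between 116 and 44 bases before the start, and once in that of Cry1, 60 bases before it. The D-box TTATGTAA occurs 2 times in the Per3 window, 205 and 158 bases before the start. The REV-ERB element TAGGTCA lies 12 bases before the start of Nfil3, on the opposite strand, so that the window reads TGACCTA. Within 250 bases before the start and on both strands, the E-box was found in 6.02% of 32851 promoters and in 4 of 15 matched clock genes (Ciart, Cry1, Per1 and Tef). The D-box was found in 0.819% of promoters and in 1 clock gene, and the REV-ERB element in 2.23% and in 1. The E-box genes Ciart and Cry1 peaked at 1.31 h and 10.2 h in daytime-fed fat, and the matches are a description of these letters alone.

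Outside the clock lists, the genes with the lowest p of the rhythm contrast were rhythmic under both regimens. Tspan4, a tetraspanin (chromosome 7, 141475240 to 141493427, plus strand), had time means between 351 CPM at 4 h and 183 CPM at 20 h daytime-fed, and between 426 CPM at 18 h and 156 CPM at 4 h ad libitum. Its peaks lay at 7.28 ± 0.51 h daytime-fed and 15.8 ± 0.38 h ad libitum (adjusted p = 3.36e-15). Dtx4, a ubiquitin ligase of the Deltex family (chromosome 19, 12466338 to 12501454, minus strand), was highest at 14 h with 119 CPM and lowest at 2 h with 30.8 CPM daytime-fed. Ad libitum it was highest at 2 h with 116 CPM and lowest at 14 h with 22.4 CPM, or highest at 0 h with 122 CPM without the 3 libraries (adjusted p = 8.84e-15). Osgin1, a growth inhibitor induced by oxidative stress (chromosome 8, 119434124 to 119446256, plus strand), was highest at 8 h with 49.2 CPM daytime-fed and at 20 h with 43.0 CPM ad libitum, with a peak-to-trough of 2.49 ± 0.29 and 1.92 ± 0.29 log2 units in the same order. The others were the death-associated kinase Dapk1, the MIF4G domain gene Mif4gd, the podosome scaffold Sh3pxd2a, Map2k3, a kinase upstream of p38, the matrix protein Crtac1, Cdkn1a and the deubiquitinase Usp2. All 10 passed without the 3 outlying libraries.

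Genes rhythmic under both regimens peaked at other hours in daytime-fed than in ad libitum fat. Of 120 such genes, 10 were clock genes and 110 were not. The 110 had a median shift of -9.22 h (negative is earlier when daytime-fed; on a 24 h circle a shift near 12 h may be read either way, and values were centred on the circular mean), with quartiles of -10.97 and -8.03 h and a range of -15.93 to -3.28 h. None lay within 3 h of the ad libitum time: 57 differed by 9 h or more, 43 by 6 to 9 h and 10 by less than 6 h. Among the smallest shifts were those of Gkn3 (-3.28 ± 1.25 h), Trp53i11 (-3.56 ± 1.16 h), the growth factor gene Hdgf (-4.20 ± 1.02 h) and the calcium-binding protein gene Efhd2 (-4.97 ± 1.18 h). The rhythm contrast of Gkn3 and Trp53i11 did not pass (adjusted p = 0.104 and 0.0803). Nearest to an inversion were the zinc finger gene Zfp740, Cluh, which binds mRNAs of mitochondrial proteins, Dapk1, Osgin1 and Csad, an enzyme of taurine synthesis. Csad peaked at 15.2 h daytime-fed and 3.35 h ad libitum.

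**Figure D5:**
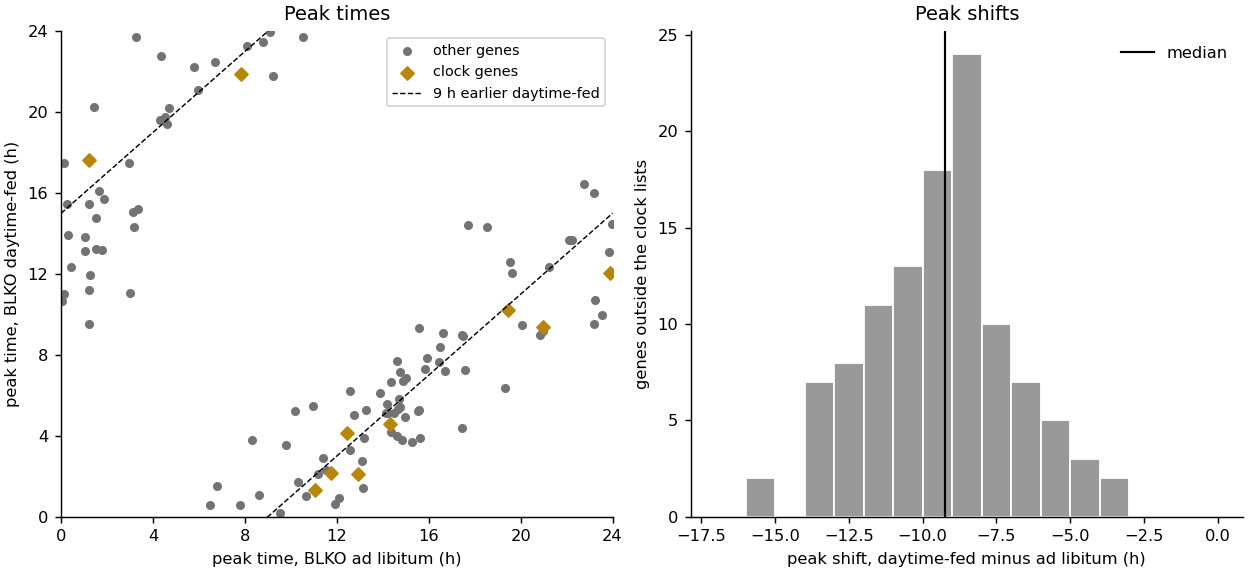
Left, fitted peak time in daytime-fed against ad libitum BLKO fat for genes rhythmic under both regimens (grey, 110 genes outside the clock lists; gold diamonds, 10 clock genes), with dashed lines 9 h earlier than ad libitum. Right, the number of the 110 genes in each 1 h bin of peak shift, with a black line at the median of -9.22 h.

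Among genes past the contrast, the largest gains of peak-to-trough were in Acot4, a peroxisomal acyl-CoA thioesterase, Pmepa1, an inhibitor of TGF-beta signalling, Pnpla3, a patatin-like protein of the lipid droplet, the phosphatase Dusp10 and the secreted protein Tsku. Acot4 had its highest time mean at 4 h and its lowest, 3.94 CPM, at 16 h when daytime-fed. Its peak-to-trough was 1.87 ± 0.27 log2 units daytime-fed and 0.16 ± 0.27 ad libitum, where it was not rhythmic (contrast, adjusted p = 0.00172). Pnpla3 (chromosome 15, 84167837 to 84187236, plus strand) had 255 CPM at 12 h and 17.3 CPM at 0 h when daytime-fed, or 23.5 CPM at 0 h without 0A. With all libraries its peak-to-trough was 2.58 ± 0.51 daytime-fed, against 1.19 ± 0.51 ad libitum (adjusted p = 0.000916). Pmepa1 had 1.97 ± 0.28 daytime-fed and 0.34 ± 0.28 ad libitum. All 5 contrasts passed without the 3 libraries.

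Of 20 genes of fatty acid and triglyceride synthesis 7 were rhythmic in daytime-fed fat (Me1, Gpam, Acss2, Mlxipl, Srebf1, Thrsp and Pnpla3) and 1, Acacb, in ad libitum fat, where 7.43% and 4.09% of all genes were. Without the 3 libraries these counts were 6 and 0. Acss2 had its highest time mean of 254 CPM at 22 h and its lowest of 59.7 CPM at 0 h when daytime-fed, or 72.4 CPM at 6 h without 0A. The rhythm contrast passed for 3 of the 20, or 2 without the 3 libraries, where 8.97% of all genes passed, so the difference between regimens was not shown for Me1 or Acss2 (adjusted p = 0.157 and 0.104). Of 15 genes of insulin signalling and glucose uptake 6 were rhythmic daytime-fed and 2 ad libitum, and 3 passed the contrast, against the same shares of all genes. Without the 3 libraries these counts were 7, 0 and 2. Pck1, which makes glycerol backbone precursors in fat, had 2307 CPM at 22 h and 524 CPM at 12 h when daytime-fed, against 1964 CPM at 4 h and 1041 CPM at 18 h ad libitum (contrast, adjusted p = 0.0173). The ad libitum maximum rested on 4B, and without the 3 libraries the time means lay between 1692 CPM at 8 h and 875 CPM at 0 h (contrast, adjusted p = 0.00561). Among adipokines, Apln was highest at 4 h with 34.5 CPM and lowest at 18 h with 7.42 CPM daytime-fed, against 15.7 CPM at 14 h and 5.02 CPM at 4 h ad libitum (adjusted p = 0.000111). The ad libitum minimum rested on 4B, and without the 3 libraries it was 5.51 CPM at 8 h (adjusted p = 0.000280). Lep passed the contrast as well (adjusted p = 0.0185, and 0.00509 without the 3 libraries), with fitted peaks at 7.30 ± 1.38 h daytime-fed and 14.8 ± 1.07 h ad libitum, though neither group was rhythmic by its own test with all libraries (daytime-fed, adjusted p = 0.0641, and 0.00932 without the 3). In the ER stress list the amino acid response genes Ddit3 and Atf4 were rhythmic in daytime-fed fat alone and passed the contrast (adjusted p = 9.2e-05 and 0.0127), and Asns, the asparagine synthetase, was rhythmic in both groups with peaks at 10.7 h daytime-fed and 0.0303 h ad libitum.

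Losses of amplitude outside the clock leaned in part on the outlying libraries. By the same rule they were in Itgax, an integrin of leukocytes, Chchd10, a mitochondrial protein gene, Mmp11, a matrix protease, Pmp22, a myelin protein gene, and Sfrp5, a secreted Wnt inhibitor. Chchd10 had 1.53 ± 0.48 log2 units ad libitum and 0.47 ± 0.48 daytime-fed, but its ad libitum maximum was library 0B with 2483 CPM, followed by 4B with 2342, against 687.8 CPM or less in the other 22. Without the 3 libraries its contrast did not pass (adjusted p = 0.485), and neither did those of Mmp11 (0.0769) and Sfrp5 (0.0626), while Itgax (0.0298) and Pmp22 (0.0377) did. Peak times also moved without the 3 libraries. Of 439 rhythmic ad libitum genes outside the clock lists 176 (40.1%) peaked from 0 to 4 h, against 48 of 195 (24.6%) without them. Of 812 rhythmic daytime-fed genes 173 (21.3%) peaked from 0 to 4 h and 66 (8.13%) from 16 to 20 h, and without the 3 libraries these were 142 (18.7%) and 89 (11.7%) of 760.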

How the data were processed

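Bulk RNA-seq counts of 96 white fat libraries were used, 48 of them from BLKO mice. Per the submitters' processing notes, cutadapt, HTSeq, STAR, bcl2fastq and DESeq2 were used with the build mm10; roles, order and versions are not given in the sources used. Raw counts per gene were deposited by the authors beside a normalized signal, which is not used. Strand use is not stated. Per the labels' protocols, in vitro transcription served for linear amplification. Genes in both genotype tables were kept (13623 of 13904 BLKO genes, leaving out 0.0127% of BLKO counts).

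Members and gene lists were chosen with earlier results of these data known. edgeR 4.0.16 (R 4.3.3, limma 3.58.1) fitted all 96 libraries with TMM scaling after filterByExpr, which kept 11065 genes. The fit had 12 coefficients, a mean, cosine and sine of a 24 h period for each group, and 84 residual degrees of freedom. Quasi-likelihood F tests were adjusted by Benjamini-Hochberg at 0.05. Least squares cosine fits to log2 CPM (prior count 2) gave peak times and amplitudes. Errors are standard errors with 24 libraries per group and, for each gene, a residual spread shared by all groups of the fit. They do not show the spread of a single group. The p-values measure the spread between libraries. CPM is a count scaled to the library total.

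Genes were named by rule: the 10 highest and 10 lowest fold changes past the threshold with a fitted average of at least 3 log2 CPM and the same sign without the 3 outlying libraries, clock genes, the 10 lowest p and 5 largest amplitude gains and losses of the rhythm contrast, the 5 smallest shifts and the 5 nearest to 12 h, and list members by lowest p. A gene that the rule named is not reported here. Coordinates are those of GENCODE M21, counted from 1. The scripts were tested on simulated counts. Alternatives were the fits, scalings and left-out libraries of the last section, with DESeq2 1.42.0. Tables and figures were made in Python 3.11.15 (matplotlib 3.10.9, scipy 1.17.1, pandas 2.3.3, numpy 2.4.6).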

Additional observations from a re-analysis of the deposited data

Results flagged for a closer look

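Among the genes named for their fold change, 4 differed between BLKO and Alb-Cre white fat in the test of the difference of the feeding effect (edgeR, Benjamini-Hochberg adjusted over all genes). The difference, BLKO minus Alb-Cre, was 1.33 log2 units for Elovl6 (adjusted p = 0.00412), with 24 of 24 daytime-fed BLKO libraries above the ad libitum BLKO median. It was -1.32 for Prg4 (adjusted p = 0.00535) and -1.21 for Alox15 (adjusted p = 0.0252), each with 22 of 24 daytime-fed BLKO libraries below that median. For Psme2b it was -0.95 (adjusted p = 0.0472), with 17 of 24 below, and the highest ad libitum BLKO library, 10B, held 81.9 CPM where the ad libitum median was 9.78.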

How the results depend on the processing

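The counts of genes higher and lower in mean, 556 and 596, stayed within 1.5 times in every alternative fit with the same thresholds, and the median shift lay between -9.95 and -9.08 h when single times were left out. Labels of the same hour and letter did not pair libraries of the regimens (24 pairs, correlations from -0.425 to 0.389, median 0.0679, 7 above 0.1, 0 best matches with the own label). With the replicate block 602 genes were higher, 610 lower and 1084 changed rhythm, and DESeq2 gave 576, 636 and 1140. With 24 h and 12 h terms, 626 genes changed rhythm and 251 were rhythmic ad libitum. The ad libitum count of 453 was 207 without AL 0B, AL 4B and DF 0A, 288 without AL 0B and 255 without AL 4B. Leaving out single times gave 231 (without 4 h) to 572 (without 2 h) ad libitum. Among these were 488 without 0 h, 290 without 10 h, 299 without 14 h and 263 without 16 h. For the 822 daytime-fed genes the range was 534 (without 16 h) to 785 (without 4 h). The daytime-fed count was 303, of which 278 were shared, without the 9 libraries with epithelial markers over 100 CPM, an alternative added after seeing the data that removes 5 daytime-fed and 4 ad libitum libraries; 384 genes were then higher and 416 lower. A change of at least 1.5-fold as well left 62 higher, 46 lower, 493 with changed rhythm, 496 rhythmic daytime-fed and 265 ad libitum. Of 1976 recomputed means of 76 named genes, 1760 kept direction and side of the threshold and 216 fell short of it, and of 850 recomputed rhythm contrasts of 34 genes, 790 and 60. No direction reversed. The cause of these differences was not tested. With 2 libraries per time and 1365001 to 4438347 counts each, genes of a few CPM have wide errors.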
